A study of Mus musculus with 6 samples.

Results

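The genes described here are 10 mouse imprinted genes that control growth: H19, Igf2, Igf2r, Cdkn1c, Dlk1, Meg3, Grb10, Plagl1, Peg3 and Ndn. They were picked by symbol as imprinted genes at loci with CTCF and cohesin sites. The rule itself used no measured values, but the choice was made with earlier results of these data known. All 10 were found among the 33924 genes of the deposited count table. RNA had been sequenced from lineage-depleted mouse bone marrow, that is, marrow from which magnetic beads had removed cells bearing markers of mature blood lineages. The remaining population holds early blood cells of many kinds. Of 6 libraries, 3 carried the genotype label Stag2KO and 3 the label Stag2WT. The Stag2 protein belongs to cohesin, a ring-shaped complex that loops chromatin between sites of the insulator protein CTCF. The labels used here name no strain, age or sex, no driver of the Stag2 deletion, no shared allele and no number of mice per library. Libraries of a group may therefore be technical repeats, and p-values measure only the spread between them.

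An imprinted gene is transcribed mainly from the copy inherited from one parent, because DNA methylation laid down in the egg or sperm marks a control region nearby. At the Igf2 and H19 locus, CTCF binds the unmethylated maternal control region and insulates Igf2 from enhancers that it shares with H19, and cohesin gathers at such CTCF sites. Paternally expressed members such as Igf2, Dlk1, Plagl1, Peg3 and Ndn contrast with H19, Igf2r, Cdkn1c and Meg3, which are expressed from the maternal copy, as is Grb10 in most tissues. Several of these genes are known to be active in blood stem cells, where Cdkn1c helps to hold the cells out of division. Counts per gene add up both parental copies, so the level of each gene was measured here and its imprint was not.

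The targeted gene was lower in each Stag2KO library. Stag2 stood at 169, 186 and 183 CPM in the Stag2KO libraries and at 338, 328 and 324 CPM in the Stag2WT libraries, where CPM is the read count scaled to library size after TMM normalization. The Stag2KO mean was 54.4% of the Stag2WT mean, with no overlap between the groups. Libraries held 29435651 to 37722325 gene reads, so that 1 CPM corresponds to 29.2 to 38.2 reads. Reads in no annotated gene were 11.1% to 12.8% of the table total in Stag2KO and 8.81% to 10.1% in Stag2WT. The sample was checked against stem and progenitor markers: Kit, Cd34 and Flt3 were all detected, with group means between 79.7 and 244 CPM. They were the most abundant of the 15 listed stem cell markers, and the others had group means of 34.0 CPM or less. Markers of macrophages, B cells and stroma were present in both groups and mostly lower in Stag2KO, as given at the end.

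The promoters of 8 of the 10 genes were matched in a RefSeq table of windows that run from 250 bases before to 50 bases after a start site (build GRCm38.p6, a later build than the one used for the counts). H19 and Cdkn1c were not in that table. The 13 matched windows were searched on both strands for TGCCGC, the hexamer read by the imprint-protecting zinc finger protein ZFP57, and for GGNGGCAG, part of the CTCF motif. TGCCGC was found in 4 of the 13 windows and in 11.6% of all 32851 windows of the table, and GGNGGCAG in 2 of the 13 and in 12.6% of all windows. Both proteins are known to act at imprinted control regions. Windows of 4 members held a match, and 3 windows are shown as examples, 1 each of Meg3, Plagl1 and Grb10. Igf2 held TGCCGC in window 2 and GGNGGCAG in window 3 of its 4 windows, which are not printed. Bases of a motif match are in capitals. Meg3 (chr12:109540746-109541045, plus strand) holds TGCCGC on the opposite strand, starting 190 bases before the start site.
Meg3: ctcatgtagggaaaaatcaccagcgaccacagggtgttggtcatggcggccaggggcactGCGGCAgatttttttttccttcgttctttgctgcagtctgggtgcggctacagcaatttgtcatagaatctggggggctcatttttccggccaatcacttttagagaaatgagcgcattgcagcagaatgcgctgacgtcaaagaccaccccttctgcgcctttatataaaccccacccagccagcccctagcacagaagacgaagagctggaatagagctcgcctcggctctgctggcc
Plagl1 (chr10:13090582-13090881, plus strand) holds TGCCGC on the opposite strand, starting 90 bases before the start site.
Plagl1: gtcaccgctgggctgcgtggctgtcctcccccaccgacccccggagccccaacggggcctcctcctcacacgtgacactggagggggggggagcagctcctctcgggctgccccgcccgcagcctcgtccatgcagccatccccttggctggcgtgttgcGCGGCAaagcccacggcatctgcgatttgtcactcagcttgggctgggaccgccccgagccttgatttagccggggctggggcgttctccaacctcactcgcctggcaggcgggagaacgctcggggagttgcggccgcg
The upstream window of Grb10 (chr11:12037371-12037670, minus strand) holds GGNGGCAG starting 23 bases after the start site, and TGCCGC on the opposite strand at bases that overlap it.
Grb10: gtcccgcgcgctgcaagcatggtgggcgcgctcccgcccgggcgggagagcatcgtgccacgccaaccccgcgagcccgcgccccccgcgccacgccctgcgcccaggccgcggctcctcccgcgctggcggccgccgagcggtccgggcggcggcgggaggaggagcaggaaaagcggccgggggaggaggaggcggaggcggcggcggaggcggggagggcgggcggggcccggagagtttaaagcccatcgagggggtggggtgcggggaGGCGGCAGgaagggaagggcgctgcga
The Grb10 window is dense in CG, with 45 CG pairs and 80% G or C, against 9 CG pairs in the second Grb10 window and a median of 7 over all windows. The Plagl1 window has 26 CG pairs and the Meg3 window 13. A match of letters is a description and not a measured binding site.

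Cdkn1c rose in Stag2KO marrow and was the only member called among the 6 that could be tested, while Meg3, too low for that test, had 5 reads there against 33 in Stag2WT. Cdkn1c encodes p57, an inhibitor of cyclin-dependent kinases. Of the 10 members, 6 had enough reads to be tested, namely Igf2, Igf2r, Cdkn1c, Grb10, Plagl1 and Ndn. By edgeR's quasi-likelihood test with Benjamini-Hochberg adjustment over 15708 genes, 1 of the 6 was higher, 0 were lower and 5 were not called. The call needs an adjusted p below 0.05, which 21.2% of all tested genes met (10.7% on the higher side, 10.5% on the lower). The median log2 fold change of the 6 was -0.028, beside 0.0064 over all tested genes. Igf2 passed the filter on low counts through its 3 Stag2WT libraries and 1 Stag2KO library, and Ndn through its 3 Stag2KO libraries and 1 Stag2WT library, so these 6 are not a neutral sample of the members. H19, Dlk1, Meg3 and Peg3 fell under the filter.

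**Figure D1:**
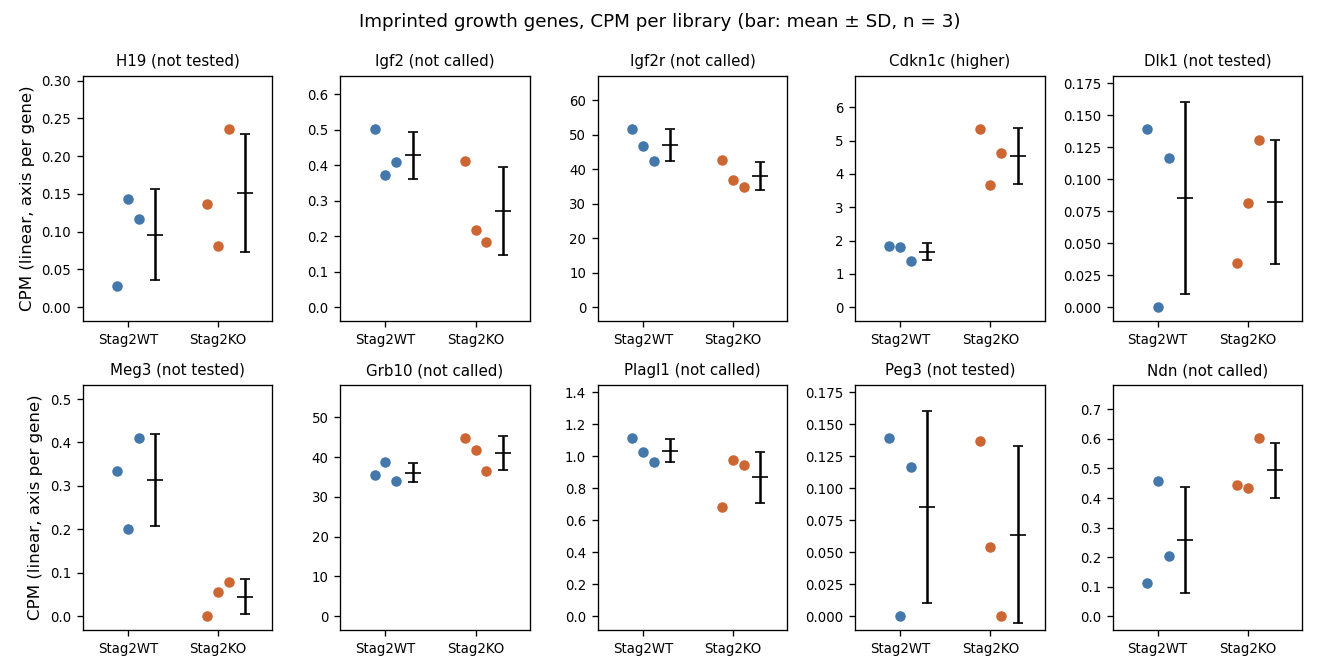
CPM of the 10 genes in each library on a linear axis of its own per gene, with the mean and SD of 3 libraries beside the points and the call of edgeR's test in the title. Cdkn1c and Meg3 are the genes whose groups do not overlap, with Cdkn1c at 3.67 to 5.34 CPM in Stag2KO against 1.37 to 1.84 CPM in Stag2WT. Groups do not overlap for 43.4% of all tested genes, which do not include Meg3.

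Cdkn1c was counted at 156, 135 and 177 reads in Stag2KO replicates 1, 2 and 3 and at 66, 63 and 47 reads in Stag2WT replicates 1, 2 and 3. On the CPM scale these are 5.34, 3.67 and 4.63 against 1.84, 1.80 and 1.37. All 3 Stag2KO libraries lay above all 3 Stag2WT libraries. Such a lack of overlap, in either direction, was found for 43.4% of tested genes. The mean went from 1.67 ± 0.256 to 4.55 ± 0.837 CPM (SD, n = 3 each), a fitted log2 fold change of 1.44 (SE 0.21, 95% interval 0.96 to 1.93, edgeR's quasi-likelihood adjusted p = 0.00368). The fitted fold was 2.72, with an interval from 1.94 to 3.80. Cdkn1c was called in each of the 6 fits that left out 1 library, with adjusted p from 0.00596 to 0.0143. Because these are bulk samples, a shift in the share of cells that carry the transcript and a shift in its amount per cell cannot be told apart.

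Markers of stem and progenitor cells were in part higher in the same libraries. Of 14 tested stem cell markers 6 were higher, 0 lower and 8 not called, with a median log2 fold change of 0.32. Over all tested genes, 10.7% were higher and 10.5% lower. The stem cell transcription factor gene Meis1 (log2 fold change 0.55, adjusted p = 0.0206) and the progenitor surface gene Cd34 (0.53, adjusted p = 0.0222) were among those that rose. Their calls were lost without Stag2WT replicate 1 (0.052 and 0.0631) or replicate 2 (0.0676 and 0.0881), and that of Cd34 also without Stag2KO replicate 2 (0.0656) or 3 (0.0578). Kit (0.05) and Flt3 (-0.28) were not called. The summed CPM of the 15 stem markers ran from 623 to 759 in Stag2KO and from 541 to 665 in Stag2WT, so the groups overlapped. The part of stem cell content in the Cdkn1c result was not tested.

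Among the other cell cycle genes that could be tested, no inhibitor of cyclin-dependent kinases was called higher and several cyclin genes fell. Of 12 tested inhibitors, G1 cyclins and their kinases, 0 were higher, 5 lower and 7 not called. The called share was 41.7%, beside 21.2% of all tested genes, and the median log2 fold change was -0.18. The inhibitor genes Cdkn2a (6 reads in Stag2KO, 2 in Stag2WT) and Cdkn2b (20 and 9 reads) were too low to test. Ccnd1, encoding cyclin D1, fell from a mean of 44.2 to 19.3 CPM (log2 fold change -1.20, adjusted p = 0.00221), and Ccnd3, encoding cyclin D3, fell by 0.67 (adjusted p = 0.00991). The cyclin E genes Ccne2 (-0.66, adjusted p = 0.0204) and Ccne1 (-0.74, adjusted p = 0.0409) fell, as did the inhibitor gene Cdkn2c (-0.40, adjusted p = 0.0231). These last 3 calls were less stable. The Ccne2 call was lost without Stag2KO replicate 2 (0.0637) or 3 (0.0575). The Ccne1 call was lost without Stag2KO replicate 1 (0.0912), 2 (0.0997) or 3 (0.121), without Stag2WT replicate 1 (0.0586), and without the filter on low counts (0.102). The Cdkn2c call was lost in every fit without 1 library (0.0504 to 0.0752) except the one without Stag2WT replicate 3. Cdk6, a kinase gene of early progenitors, was not called (0.48, adjusted p = 0.12), but was called higher by DESeq2 (0.0277) and without Stag2WT replicate 3 (0.00595). The inhibitor genes nearest to Cdkn1c in kind, Cdkn1a (-0.19, adjusted p = 0.36) and Cdkn1b (0.10, adjusted p = 0.479), were not called. The list as a whole held 2 calls without Stag2KO replicate 2 or 3, and 3 without Stag2KO replicate 1 or Stag2WT replicate 1.

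Cdkn1c lies on chromosome 7 in the Kcnq1 cluster, where genes are silenced on the paternal copy, in part in the placenta alone. Of 9 tested genes of that cluster, Cdkn1c included, 3 were higher, 1 lower and 5 not called, where 10.7% of all tested genes were higher and 10.5% lower. Tspan32, a tetraspanin gene of blood cells, stood at 166, 157 and 145 CPM in Stag2KO and at 94.7, 91.6 and 78.0 CPM in Stag2WT (fitted log2 ratio 0.83, adjusted p = 0.00113). Cd81, encoding another tetraspanin and placed between Tspan32 and Cdkn1c in the gene order, went the opposite way, from 94.8, 102 and 88.1 CPM in Stag2WT to 62.2, 52.7 and 54.4 CPM in Stag2KO (-0.75, adjusted p = 0.00146). Osbpl5, a lipid transfer gene at the far side of Cdkn1c, rose from a mean of 21.3 to 36.9 CPM (0.80, adjusted p = 0.00121). The groups did not overlap for any of these 3 genes, as for 43.4% of all tested genes.

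The tested genes nearest to Cdkn1c in the gene order were not called. Slc22a18, a transporter gene and the nearest tested gene on one side, had a fitted log2 ratio of 0.65 (adjusted p = 0.0804). Tssc4, the nearest tested gene on the other side, had -0.22 (adjusted p = 0.128). Phlda2, a growth-limiting gene of the placenta, had -1.70 on 24 reads in Stag2KO against 79 in Stag2WT (adjusted p = 0.0539). It was called lower without Stag2WT replicate 3 (0.0314), without Stag2KO replicate 2 (0.0473) and without the filter on low counts (0.0334). Nap1l4 (-0.16, adjusted p = 0.144) and Ascl2 (-0.17, adjusted p = 0.77) were not called, and the channel gene Kcnq1 was too low to test, at 26 reads against 12. Members of the cluster therefore moved in both directions around Cdkn1c. The antisense RNA Kcnq1ot1 was not analysed here.

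**Figure D2:**
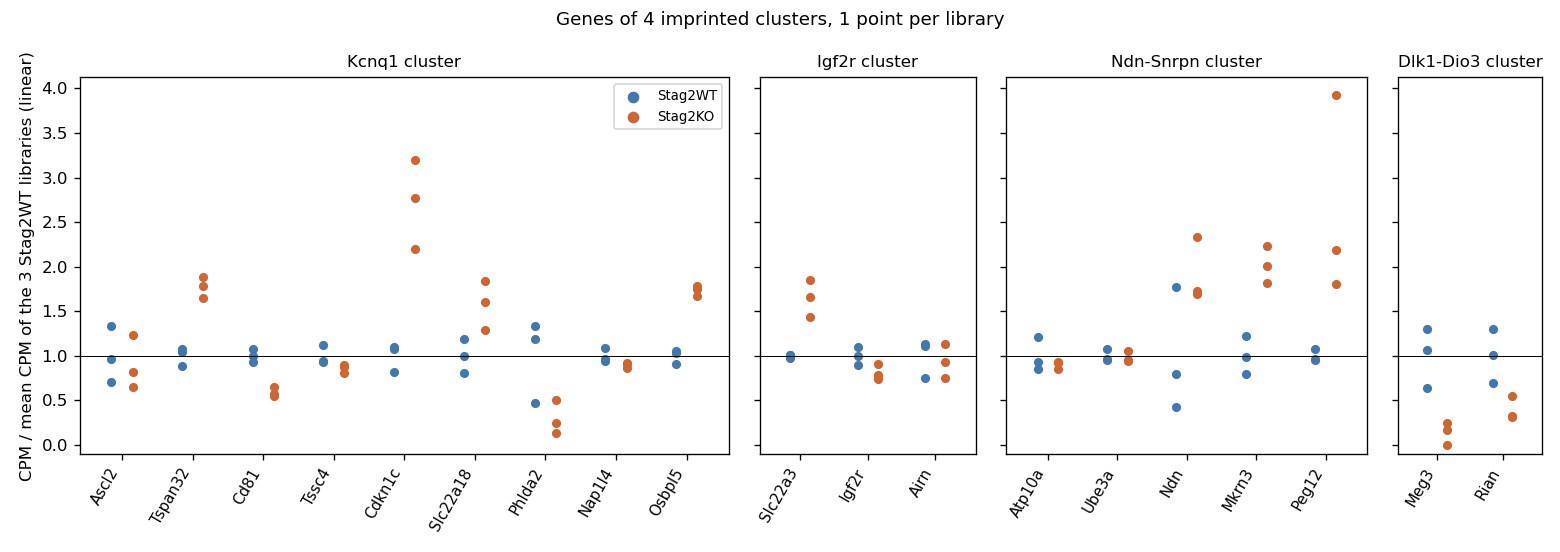
CPM of each library divided by the mean of the 3 Stag2WT libraries, on a linear axis, for the tested genes of the Kcnq1, Igf2r and Ndn-Snrpn clusters in gene order and for Meg3 and Rian, which were too low to test. Cdkn1c, Tspan32 and Osbpl5 stand above 1 in all Stag2KO libraries while Cd81 stands below, and Mkrn3 and Peg12 stand above 1 beside a scattered Ndn.

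Igf2 encodes insulin-like growth factor 2, the main fetal growth factor of the family, and its level in this marrow was low. It had 12, 8 and 7 reads in Stag2KO and 18, 13 and 14 in Stag2WT, or 0.411, 0.218 and 0.183 CPM against 0.501, 0.371 and 0.409 CPM. Stag2KO replicate 1 lay within the Stag2WT range and the other two below it. The log2 fold change of -0.69 (SE 0.39, 95% interval -1.58 to 0.20, adjusted p = 0.231) did not pass the test. Its neighbour H19, a long RNA that limits growth, had 4, 3 and 9 reads against 1, 5 and 4, with overlapping groups (two-sided exact permutation p = 0.5). Without the filter on low counts, the fitted log2 fold change of H19 was 0.66 (95% interval -0.85 to 2.17, adjusted p = 0.57). The interval of Igf2 includes a 2-fold lower level and that of H19 a 2-fold higher one, so changes of that size were not excluded. Ins2 and Th, which lie next to Igf2, had 0 reads in all 6 libraries, which allows up to 0.0143 CPM over the 209299219 gene reads by counting error. An antisense gene overlaps Igf2, and as the strand setting is not given, reads of the pair cannot be separated.

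Igf2r encodes the receptor that carries insulin-like growth factor 2 to the lysosome for breakdown. It was at 42.6, 36.8 and 34.9 CPM in Stag2KO and 51.6, 46.8 and 42.3 CPM in Stag2WT, where the highest Stag2KO library just reached above the lowest Stag2WT library. The log2 fold change was -0.30 (SE 0.10, 95% interval -0.54 to -0.06, edgeR's quasi-likelihood adjusted p = 0.0714), so Igf2r was not called. It was called lower by DESeq2 (adjusted p = 0.0448) and without Stag2KO replicate 1 (0.0488), and the other alternatives gave adjusted p from 0.0547 to 0.207. Airn, the antisense RNA that silences the paternal Igf2r and overlaps it, had a log2 fold change of -0.08 (95% interval -0.67 to 0.50). Slc22a3, a cation transporter gene near Igf2r that is imprinted in placenta, rose from 48.1, 46.9 and 48.4 CPM to 68.4, 88.2 and 79.5 CPM (0.72, adjusted p = 0.00223). The Slc22a3 groups did not overlap, as was found for 43.4% of all tested genes.

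In the wider insulin-like growth factor and insulin pathway, the sister ligand gene fell and a regulator of Igf2 messenger RNA rose. Of 18 tested genes 2 were higher, 4 lower and 12 not called. The called share was 33.3%, beside 21.2% of all tested genes, and the median log2 fold change was -0.065. Igf1, the ligand gene that predominates after birth, fell from 34.8, 30.7 and 25.9 CPM to 11.02, 7.40 and 10.6 CPM (log2 fold change -1.65, adjusted p = 0.00114). Igfbp7, encoding a binding protein of the family, fell by 1.92 in log2 units (adjusted p = 0.00247), and Pappa, encoding a protease of binding proteins, fell by 1.37 (adjusted p = 0.0097). Igf1, Igfbp7 and Pappa moved with macrophage and stromal markers, whose values are given at the end, and the part of those cells in their falls was not tested.

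The receptor side of the pathway was mixed. Irs1, encoding an adaptor of the receptors, fell from 0.584, 0.514 and 0.819 CPM to 0.103, 0.0816 and 0.157 CPM (-2.44, adjusted p = 0.00535), on 12 reads in Stag2KO. Irs1 passed the filter on low counts through its Stag2WT libraries alone, so its place among the lower genes is not neutral. The adaptor gene Irs2 rose by 0.50 (adjusted p = 0.0193). Leaving out Stag2WT replicate 1 (0.057) or 2 (0.058), or Stag2KO replicate 1 (0.0636) or 2 (0.0576), ended this Irs2 call. Igf2bp2, whose protein binds Igf2 messenger RNA, went from 3.73, 3.40 and 3.77 CPM to 7.63, 7.32 and 7.75 CPM (1.06, adjusted p = 0.00212), with little spread within a group. The receptor genes Igf1r (0.51, adjusted p = 0.0506) and Insr (0.05, adjusted p = 0.8) were not called.

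Meg3, a long RNA expressed from the maternal copy of the Dlk1-Dio3 cluster on chromosome 12, had 0, 2 and 3 reads in Stag2KO and 12, 7 and 14 reads in Stag2WT. That is 0, 0.0544 and 0.0785 CPM against 0.334, 0.20 and 0.409 CPM, with no overlap. A lack of overlap, in either direction, was found for 43.4% of tested genes, which do not include Meg3. The share among genes under the filter was not computed. Two-sided exact permutation over the 6 libraries gave p = 0.1, the smallest that 3 against 3 allow. When genes with as little as 1 read were fitted, the log2 fold change was -2.64 (95% interval -4.09 to -1.18, edgeR's quasi-likelihood adjusted p = 0.0174). With no filter and 1 library left out, an alternative chosen after the data were seen, the adjusted p ran from 0.0175 to 0.0643, and the call was lost without Stag2WT replicate 3. In some fits with the filter and 1 library left out, Meg3 was tested because it passed through Stag2WT libraries alone. There the call held without Stag2WT replicate 2 (0.0408), and was lost without Stag2KO replicate 1 (0.0553) or 2 (0.0731). The result rests on 5 reads in Stag2KO and 33 in Stag2WT.

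Other genes of the Dlk1-Dio3 cluster gave few or no reads. Rian, a further long RNA of the maternal copy, had 4, 3 and 3 reads in Stag2KO against 9, 6 and 11 in Stag2WT. The CPM values of Rian did not overlap either. The share of 43.4% is over tested genes, which do not include Rian, and the share among genes under the filter was not computed. Dlk1, the paternally expressed growth gene of the cluster that encodes a membrane protein related to Notch ligands, had 1, 3 and 5 reads against 5, 0 and 4. Its totals were 9 reads in each group, and the fitted log2 fold change without the filter was -0.01 (95% interval -2.09 to 2.08). Mirg, Rtl1 and Dio3 had 0 reads in all libraries.

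Grb10 and Plagl1 had enough reads to be tested and did not pass. Grb10 had 4239 reads in Stag2KO and 3793 in Stag2WT, and Plagl1 only 92 and 109. Grb10, encoding an adaptor that dampens insulin and insulin-like growth factor receptors, was at 44.7, 41.9 and 36.5 CPM in Stag2KO and 35.5, 38.7 and 34.0 CPM in Stag2WT, with overlapping groups. Its log2 fold change was 0.19 (SE 0.10, 95% interval -0.03 to 0.41, adjusted p = 0.195), so that a fold above 1.33 lay outside the interval. Ddc, the decarboxylase gene beside Grb10, had -1.11 (adjusted p = 0.0519) on 41 and 89 reads, and was called lower when the filter on low counts was dropped (0.0495). Plagl1, encoding a zinc finger protein that arrests the cell cycle and regulates other imprinted genes, had 20, 36 and 36 reads against 40, 36 and 33. Its log2 fold change was -0.24 (SE 0.24, 95% interval -0.79 to 0.30, adjusted p = 0.489). The lowest Plagl1 library was Stag2KO replicate 1, at 0.685 CPM against 0.942 to 1.11 CPM in the others.

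Peg3 and Ndn are paternally expressed genes that restrain growth or cell cycle entry. Peg3, encoding a large zinc finger protein, had 4, 2 and 0 reads in Stag2KO and 5, 0 and 4 in Stag2WT. Those 6 and 9 reads give no direction, and the interval of the log2 fold change fitted without the filter ran from -2.79 to 1.76. Ndn, encoding necdin, which is known for keeping blood stem cells quiescent, had 13, 16 and 23 reads against 4, 16 and 7. Stag2WT replicate 2 (0.457 CPM) lay among the Stag2KO libraries (0.435 to 0.602 CPM), while the other Stag2WT libraries were at 0.111 and 0.205 CPM. Its log2 fold change of 0.94 (SE 0.48, 95% interval -0.15 to 2.03, adjusted p = 0.187) was not called. Without Stag2WT replicate 2 it was 1.64 (adjusted p = 0.0601), and without Stag2WT replicate 1 it was 0.58 (0.39).

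Peg12 and Mkrn3, paternally expressed neighbours of Ndn on chromosome 7, were called higher, Mkrn3 in only part of the alternatives. Peg12, a gene of the same domain, stood at 2.77, 6.01 and 3.35 CPM in Stag2KO and at 1.47, 1.66 and 1.46 CPM in Stag2WT (fitted log2 ratio 1.40, adjusted p = 0.015), with Stag2KO replicate 2 far above the rest. It was called in all 6 fits that left out 1 library. Without Stag2KO replicate 2 its log2 fold change was 1.003 (adjusted p = 0.0246). Mkrn3, encoding a ring finger protein, was at 1.13, 1.25 and 1.02 CPM against 0.445, 0.685 and 0.556 CPM (1.01, adjusted p = 0.0279). The Mkrn3 call held without Stag2WT replicate 2 (0.043), and was lost without Stag2WT replicate 1 (0.0771) or 3 (0.0687), without Stag2KO replicate 1 (0.0635), 2 (0.0843) or 3 (0.0552), and with DESeq2 (0.0601). Snrpn, counted at 12 reads in Stag2KO and 5 in Stag2WT, was too low to test, and Magel2 had 0 reads. The maternally expressed Ube3a (-0.02) and its neighbour Atp10a (-0.14) were not called. In all, 2 of 5 tested genes of the domain were higher, 0 lower and 3 not called, where 10.7% of all tested genes were higher and 10.5% lower.

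Across imprinted genes outside the 10 members, calls went in both directions. Of 56 such genes listed, 53 were in the table and 35 were tested, of which 7 were higher, 3 lower and 25 not called. The called share was 28.6%, beside 21.2% of all tested genes, and the median log2 fold change was 0.13. Besides Tspan32, Osbpl5, Slc22a3, Peg12 and Mkrn3, the genes that rose were Herc3, a ubiquitin ligase gene (0.93, adjusted p = 0.00471), and Blcap (0.32, adjusted p = 0.0422). The Blcap call was lost in every fit without 1 library (0.0584 to 0.148) and without the filter on low counts (0.0513). Mest, encoding a hydrolase of mesoderm, fell from 1.84, 3.74 and 2.34 CPM to 0.89, 1.09 and 0.681 CPM (-1.57, adjusted p = 0.0125). Peg10, a gene derived from a retrotransposon, fell by 1.20 (adjusted p = 0.0252), a call that failed without Stag2WT replicate 2 (0.0697) and without Stag2KO replicate 2 (0.0633) or 3 (0.0719). Mest and Peg10, which fell, and Peg12 and Mkrn3, which rose, are all known as paternally expressed.

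**Figure D3:**
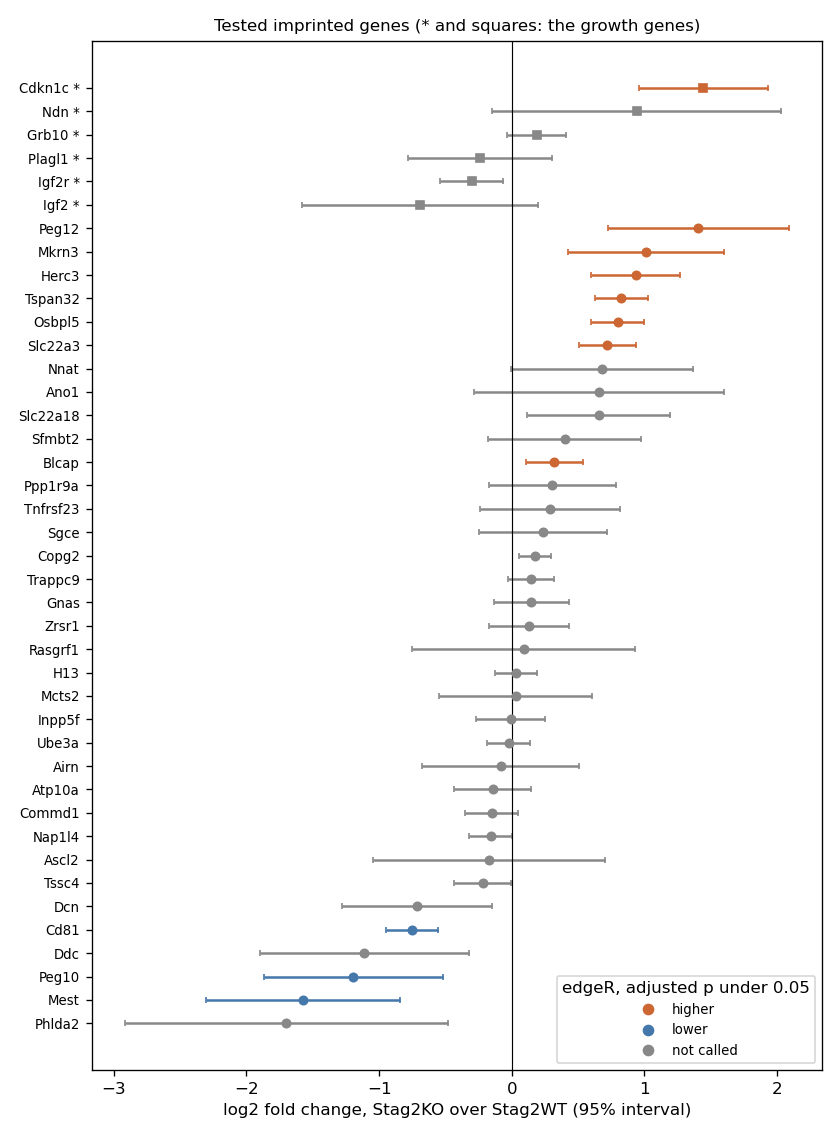
Log2 fold change (Stag2KO over Stag2WT) with its 95% interval for the 6 tested members (squares, starred) and 35 other tested imprinted genes (circles), coloured by edgeR's call. Cdkn1c at 1.44 is the member whose interval is called, and the others range from -1.70 (Phlda2) to 1.40 (Peg12).

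Among genes that read or keep imprints, Zfp57 and Ctcfl rose, both best known from germ cells or early embryos. Of 23 tested genes of imprint maintenance, insulation and cohesin, 2 were higher, 4 lower and 17 not called, with Stag2 itself among the lower ones. The called share was 26.1%, beside 21.2% of all tested genes, and the median log2 fold change was -0.046. Zfp57, encoding the zinc finger protein that protects imprints from demethylation, rose from 0.945, 0.856 and 1.02 CPM to 2.74, 2.29 and 2.38 CPM (1.39, adjusted p = 0.00337). Ctcfl, the CTCF paralog gene of the male germ line, rose from 0.25, 0.20 and 0.205 CPM to 1.51, 0.626 and 1.05 CPM (2.24, adjusted p = 0.00744), on 107 reads against 23. Ctcfl passed the filter on low counts through its Stag2KO libraries alone, so its place among the higher genes is not neutral. Neither group pair overlapped, as for 43.4% of all tested genes, and both calls held in all 6 fits without 1 library.

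Ctcf (-0.05, adjusted p = 0.583), Trim28, the corepressor gene that works with ZFP57 (-0.02, adjusted p = 0.848), and the maintenance methyltransferase gene Dnmt1 (-0.09, adjusted p = 0.413) were not called. Uhrf1, whose protein guides DNMT1 to replicated DNA, fell by 0.46 in log2 units (adjusted p = 0.00502). The Polycomb genes Ezh2 (-0.32, adjusted p = 0.0137) and Eed (-0.23, adjusted p = 0.0466) fell. The Ezh2 call was lost without Stag2KO replicate 3 (0.0578). The Eed call was lost with limma-voom (0.0547) and in every fit without 1 library (0.0826 to 0.139) except that without Stag2WT replicate 3 (0.0435).

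Levels of different members were compared per kilobase of exon, with exon lengths from the GENCODE M21 annotation. In Stag2WT the order was Igf2r (5.04 ± 0.496 CPM per kilobase, SD, n = 3), Grb10 (3.97 ± 0.263), Cdkn1c (0.819 ± 0.126), Plagl1 (0.132 ± 0.0094), Igf2 (0.0746 ± 0.0116), Ndn (0.0697 ± 0.0484), H19, Meg3, Dlk1 and Peg3. From Igf2r down to Igf2 the libraries of neighbours in that order did not overlap, and from Igf2 downward each gene overlapped with the next. In Stag2KO, Grb10 (4.51 ± 0.462) and Igf2r (4.09 ± 0.429) overlapped, and Cdkn1c followed at 2.23 ± 0.41. Meg3 (0.0025 ± 0.0022) had the lowest mean there, but its libraries overlapped with those of Peg3, the next gene up.

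For Igf2r and Grb10, the members with a mean of at least 5 CPM, genes of like pattern were looked up over the 6 libraries. On log2 CPM, Arhgap19 (Pearson r = 0.996) and Prpf6 (0.983) were most like Igf2r, and Btbd6 (0.992) and Ptpn2 (0.988) most like Grb10. Of 10822 genes compared, 113 reached r above 0.9 with Igf2r and 72 with Grb10. They describe these libraries, which share depth and composition, and nothing further.

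Marker lists of several other cell types differed between the genotypes in the same libraries. For comparison, 10.7% of all tested genes were higher and 10.5% lower. Of 10 macrophage markers 9 were lower and 0 higher, with summed CPM of 320 to 463 in Stag2KO and 1081 to 1225 in Stag2WT. Of 13 tested stromal and bone markers 9 were lower and 1 higher, with sums of 113 to 162 against 268 to 291. All 9 B cell markers were lower, with sums of 73.0 to 85.0 against 186 to 294. Of 9 granulocyte markers 4 were higher, 0 lower and 5 not called, with sums of 15876 to 21153 against 13535 to 13701. These sums are weighted towards the most abundant genes of the list.

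Vessel and red cell markers separated the groups less. Of 8 endothelial markers 3 were higher and 2 lower (10.7% and 10.5% of all tested genes), with sums of 227 to 245 against 233 to 262. Of 10 erythroid markers 3 were lower and 0 higher, with sums of 1827 to 2341 against 2047 to 3469, so these sums overlapped. No marker in any list was at 0 reads over all libraries. Cdkn1c, Peg12 and Zfp57 moved the opposite way to the macrophage, stromal and B cell lists, while Igf1 and Mest moved the same way. The part of cell composition in any of these results was not tested.

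**Figure D4:**
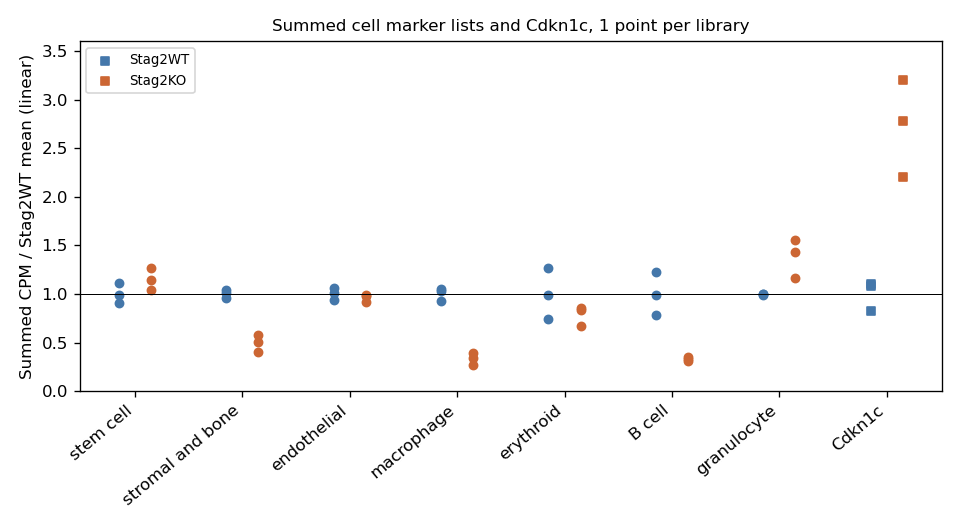
Summed CPM of each marker list in each library, and Cdkn1c (squares), divided by the mean of the 3 Stag2WT libraries, on a linear axis. Macrophage, stromal and B cell sums lie below 1 in all Stag2KO libraries, and stem cell sums of the groups overlap. Cdkn1c lies above 1 in all Stag2KO libraries. A sum is weighted towards the most abundant genes of its list, and the part of cell composition was not tested.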

How the data were processed

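Whole-gene read counts, not normalized, were deposited for the 6 libraries, with genes named by symbol. The submitters' processing notes name build mm9 and the tools DESeq2, HTSeq 0.6.1 and STAR 2.4. No source used here gives these samples' library kit, annotation or strand setting. Rows that name no gene (37.7% to 39.9% of a column, mostly reads aligned to more than 1 place) entered neither library sizes nor tests. Replicates were numbered in accession order and only name samples. Same-group libraries differed beyond sampling error (chi-square per degree of freedom 22.6 to 47.1).

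The test was edgeR 4.0.16 under R 4.3.3 (TMM, filterByExpr, genotype as the single factor of a robust quasi-likelihood model, Benjamini-Hochberg over 15708 genes, called at an adjusted p under 0.05). Intervals are 95% and come from the same fit. The filter needs about 10 reads in 3 libraries at median depth. CPM uses TMM-scaled library sizes. Untested members were compared by exact permutation. Correlations used log2 CPM with a prior count of 2. Fits were tested on simulated data. Other settings tried were no filter, median-ratio size factors, 5 CPM in 3 libraries, DESeq2 1.42.0, limma-voom (limma 3.58.1), no robust dispersion and each library left out. The members and lists were chosen with earlier results of these data known. The text names all members, up to 6 genes of smallest p in each related list, genes in a member's cluster and up to 3 markers of each cell marker list; other genes were named after their values were seen. A marker that this rule would name is not reported here. Emr1 was found for Adgre1 through RefSeq synonyms; Kcnq1ot1, Zfp264 and Peg13 matched no row. Promoter windows are from RefSeq.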

Additional observations from a re-analysis of the deposited data

How the results depend on the processing

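The Cdkn1c call held in all 11 alternatives that tested it. Counts of called members moved: 2 without the filter on low counts (Cdkn1c and Meg3), 2 with DESeq2 (Cdkn1c and Igf2r), and 0 with a minimum of 5 CPM in 3 libraries, which leaves only Igf2r and Grb10 to test. With 1 library left out, called members numbered 1 to 2 (the other being Igf2r, or Meg3 where it passed the filter through Stag2WT libraries alone), called genes 1967 to 2548 (3333 in full) and called cell cycle genes 2 to 6 (5 in full); fewer libraries give less power. DESeq2 gave Igf2 no adjusted p. Of 599 gene values under alternatives, 514 kept direction and call, 64 lost the call, 8 gained one and 13 changed sign. Sign changes, all in genes without a call, were Ascl2 without Stag2WT replicate 1 (0.092) or Stag2KO replicate 2 (0.014), Airn without Stag2WT replicate 1 (0.016) or Stag2KO replicate 1 (0.047), Ube3a without Stag2WT replicate 3 (0.028) or Stag2KO replicate 3 (0.0092) and Atp10a without Stag2WT replicate 3 (0.015). Over the fits without 1 library the values ran from -0.44 to 0.092 for Ascl2, -0.25 to 0.047 for Airn, -0.072 to 0.028 for Ube3a and -0.25 to 0.015 for Atp10a. With no filter, Dlk1 changed sign without Stag2WT replicate 1 (0.52) or 3 (0.26) or Stag2KO replicate 1 (0.30) or 2 (0.022), and Peg3 without Stag2WT replicate 1 (0.0094) or Stag2KO replicate 3 (0.10). No paired analysis was possible because the replicate numbers were given in accession order and pair no samples.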
